A study of Mus musculus with 9 samples.

Results

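Homeobox genes encode transcription factors that bind DNA through a homeodomain, and 45 of them outside the *Irx* family were measured in E10.5 mouse hearts with and without a cardiac deletion of *Ctcf*. They were taken by their symbols. All genes named *Hoxa*, *Hoxb*, *Hoxc* or *Hoxd* with a number were taken, together with the numbered genes of the *Meis*, *Pbx*, *Pknox*, *Pitx*, *Prrx*, *Msx*, sine oculis (*Six4* and its relatives), *Tgif*, *Zfhx*, *Cux*, *Alx*, *Dlx*, *Lhx*, *Emx*, *Gbx*, *Barx*, *Tshz*, *Adnp*, *Satb*, *Onecut*, *Shox*, *Meox* and *Cdx* families and *Hhex*. The annotation held 109 such symbols, and 45 of them were among the 14011 genes of the deposited expression table.

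CTCF is the zinc finger protein that binds insulators and shapes chromatin loops, and homeobox genes are among the developmental genes whose loci it is known to organize. RNA was sequenced from 9 libraries, 3 per genotype, each made from a pool of 6 hearts, so that the pool is the replicate (n = 3). Homozygotes were *Ctcf* fl/fl; *Nkx2.5-Cre*/+, heterozygotes were *Ctcf* fl/+; *Nkx2.5-Cre*/+, and controls carried floxed *Ctcf* without Cre. The deposited sample labels give the controls as *Ctcf* fl/fl, whereas the study describes them as *Ctcf* fl/+. All groups were of mixed strain, and no age other than E10.5 was sampled. *Nkx2.5-Cre* acts in cardiac progenitors and their descendants, so that other cells of the heart keep *Ctcf*, and any comparison with controls includes the driver as well as the deletion.

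Values are normalized signal, which is whole reads plus 0.5 divided by a scaled library size, and folds and standard errors (SE) are on the log2(value + 0.5) scale, which understates changes of low genes. Libraries held from 4294537 to 11629365 reads, and 1 read was worth from 0.0901 to 0.231 units. *Ctcf* was 121 ± 0.837 (SD) in controls, 97.3 ± 3.26 in heterozygotes and 81.4 ± 2.85 in homozygotes, and was lower in homozygotes than in controls by limma (log2 fold change −0.57, adjusted p = 2.91e-05). A gene was called when its Benjamini-Hochberg adjusted p from limma over all 14011 genes was under 0.05. An exact permutation test of a single gene with 3 against 3 libraries cannot go below p = 0.1 and was not used. In whole hearts, fewer cells of a type and less RNA per cell cannot be told apart. All 12 cardiomyocyte markers were in the table, with a summed signal from 22210 to 25079 in controls, from 24983 to 28810 in heterozygotes and from 21586 to 25088 in homozygotes. In homozygotes 4 of the 12 were called lower than in heterozygotes, against 6.7% of all genes. Against controls 1 was called higher and 2 lower. Erythroid and epicardial markers were higher in homozygotes than in controls, where 7.19% of all genes were called higher. The summed signal of 7 erythroid markers ran from 31756 to 46258 in controls and from 56744 to 75049 in homozygotes, with 7 of 7 called higher, and that of 7 epicardial markers ran from 475 to 534 and from 654 to 716, with 5 of 7 called higher. The part of these shifts in the values below was not tested.

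Homeodomains recognize short DNA sequences largely through the third helix, whose residue 50 helps to set which bases are read. HOX proteins pattern the body axis and often bind beside the TALE proteins Meis, Pbx and Pknox. *Shox2* marks the sinoatrial region of the heart, and *Msx1*, *Msx2*, *Prrx1* and *Prrx2* are expressed in cushion and other mesenchyme. Part of the coding sequence of the third helix is shown for members of the different classes, from the transcripts of the files' build, NCBIM37, read 5′ to 3′. The codon of residue 50 is in capitals.
*Six4*: tggttcAAGaaccggcgg
*Dlx2*: tggttcCAGaaccgccga
*Lhx3*: tggttcCAGaatcgccgg
*Cux2*: tggttcCACaactacagg
*Meis1*: tggtttATTaatgcccgg
*Pbx2*: tggttcGGTaacaagcga
The codon in capitals encoded glutamine in 26 homeoboxes of 20 members, among them *Dlx2* and *Lhx3*, isoleucine in 7 members (Meis, Pknox and Tgif), glycine in 3 (Pbx), histidine in 2 (Cux), and lysine in 3, among them *Six4* and *Six5*. *Zfhx2* and *Zfhx3* encode several homeodomains each, and the first match in each gene is shown because these genes moved in opposite directions.
*Zfhx2*: tggttcCAGaatgcccgc
*Zfhx3*: tggtttCAGaacgcccga
Both carry the glutamine codon. The searched pattern did not match in the other 10 members, the *Adnp*, *Barx*, *Satb* and *Tshz* genes and *Onecut2*, and nothing follows from this for their proteins.

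Whole branches of the superfamily were absent from the table, whose genes all reach a signal of 1 in 3 or more libraries. Of 39 HOX genes in the annotation, 4 were in the table, 2 of 11 *Hoxa* genes, 2 of 10 *Hoxb* genes, 0 of 9 *Hoxc* and 0 of 9 *Hoxd* genes. Of the NKL and other ANTP class 7 of 21 were in the table, of the sine oculis class 2 of 6, and of the LIM class 2 of 8. In contrast, 10 of 11 TALE genes, 7 of 9 PRD class genes, 5 of 7 CUT class genes and 8 of 8 zinc finger homeobox genes were present. *Hoxb1*, which acts in the pharyngeal region, was not in the table. The mean over 9 libraries was at least 5 in 31 members and lower in 14. For 9 members, among them *Alx1*, *Alx4*, *Barx2*, *Dlx2*, *Hoxa3*, *Hoxb2* and *Lhx3*, fewer than 3 libraries would have been at 1 or above without the libraries of 1 of the groups.

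Per kb of exonic length, the highest level in controls was 35.4, for *Pbx2*, a partner of HOX proteins. *Tgif2* (16.5) and *Prrx2* (13.5) were also near the top of the order. The called genes *Cux2*, *Zfhx2* and *Zfhx3* were lower, at 1.77, 1.72 and 1.44 per kb, and *Lhx3* (0.172) and *Dlx2* (0.101) were among the lowest. *Tgif2* is uncertain, since 55.3% of its transcript has a copy on chromosome 17 at 98.7% identity.

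**Figure D1:**
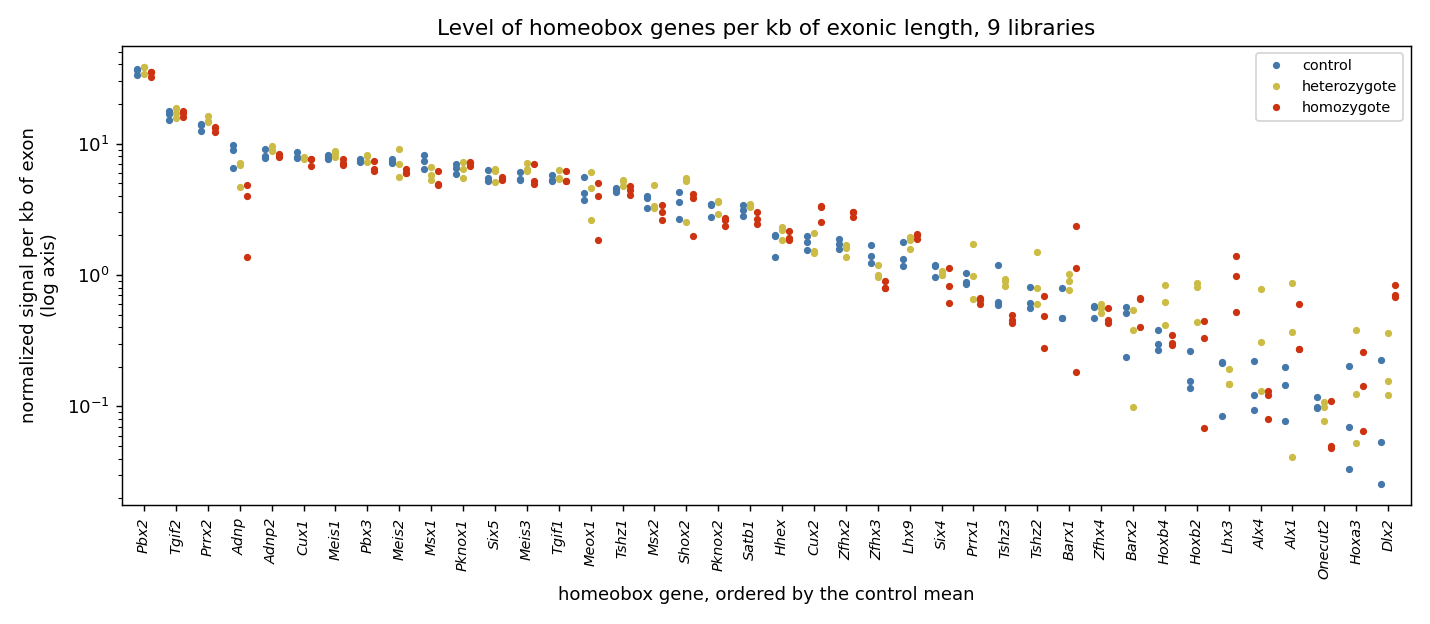
Normalized signal per kb of exonic length on a log axis for 40 of the homeobox genes, ordered by the control mean, with 1 point for each of the 9 libraries colored by genotype. *Pbx2* was the highest gene plotted and *Dlx2* the lowest by control mean, and the homozygote points of *Cux2*, *Zfhx2*, *Lhx3* and *Dlx2* lay above the other points of their gene.

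To ask how the deletion affected these genes, homozygotes were compared with controls. *Zfhx2*, *Cux2*, *Dlx2* and *Lhx3* were higher in homozygotes, and *Zfhx3* and *Adnp* were among the 3 members that were lower. The 7 calls were 15.6% of the 45 members, against 15.2% of all genes. *Dlx2* and *Lhx3* had reached the table only through the homozygote libraries in which they were high, so that a difference was a condition of their being counted. The 4 rises compared with a background of 7.19% and the 3 falls with one of 8.03%. The groups did not overlap in 17 members (37.8%), against 33.2% of all genes. The median log2 fold change was −0.06 for the members and −0.00 for all genes, and 34 members lay within 0.5 of 0. An unadjusted p under 0.05 was found for 11 members (24.4%), against 29.6% of all genes.

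**Figure D2:**
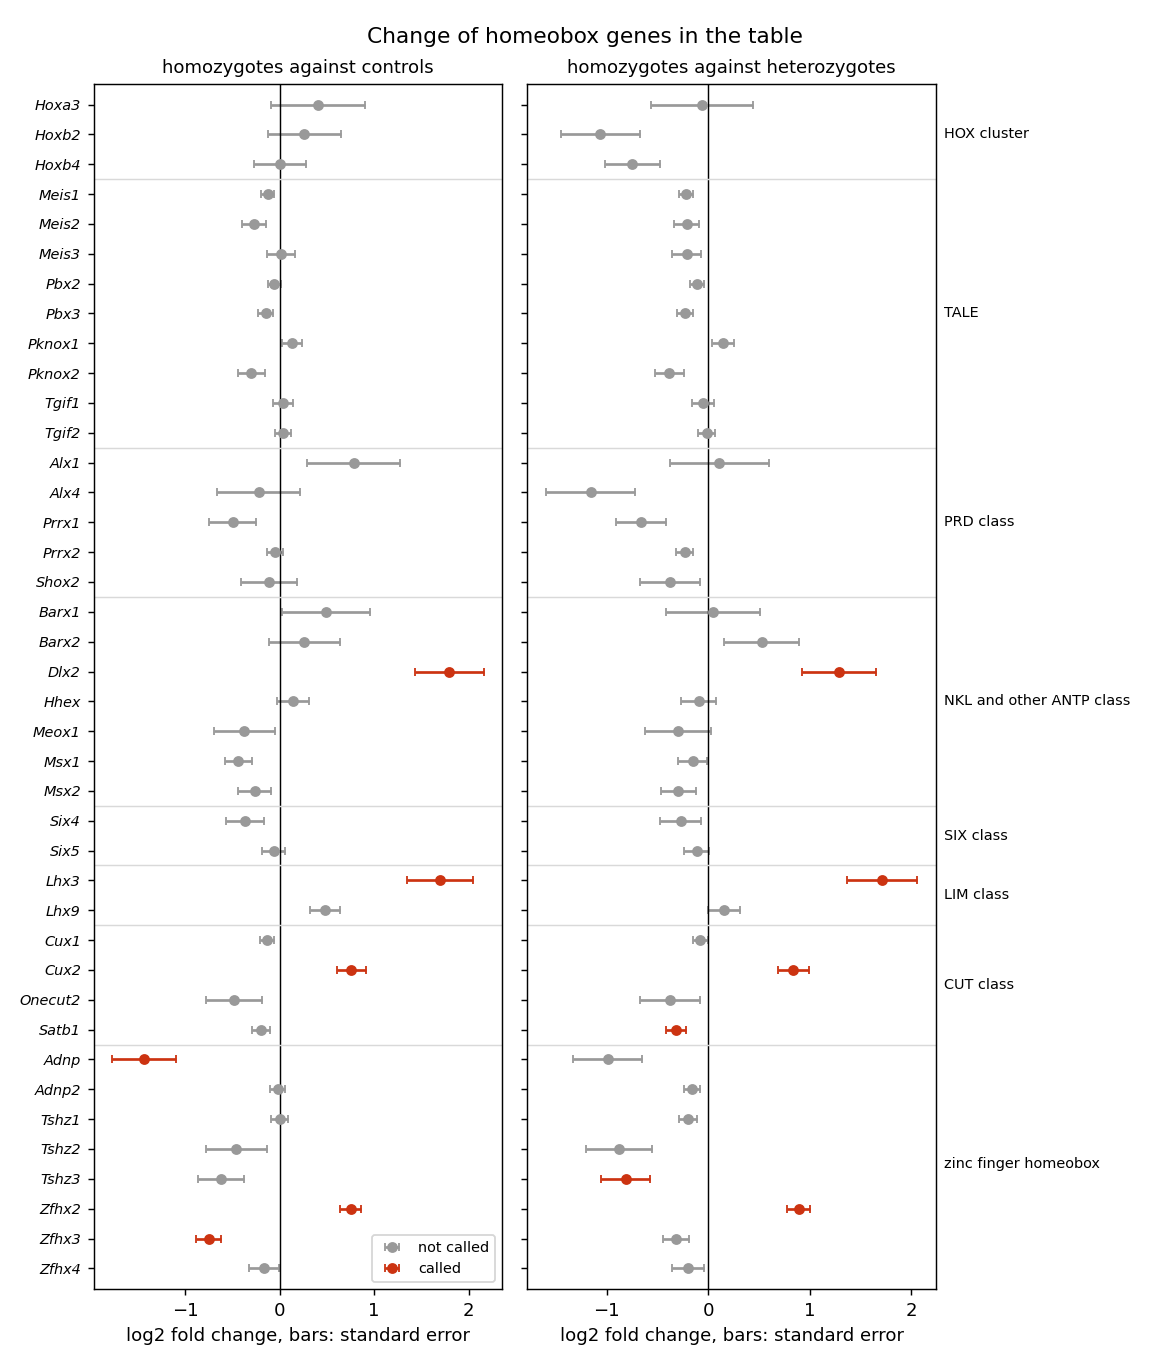
Log2 fold change (x axis) with its SE for 40 of the homeobox genes (y axis, grouped by class), homozygotes against controls on the left and against heterozygotes on the right, with called genes in red. TALE genes sat close to 0 on the left, whereas *Dlx2*, *Lhx3*, *Cux2* and *Zfhx2* lay to the right of 0 in both panels.

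*Prrx1*, a mesenchymal factor of the PRD class, was 9.37, 11.4 and 9.87 in controls, 19.2, 10.8 and 7.27 in heterozygotes, and 7.15, 6.69 and 7.43 in homozygotes. Homozygotes were below controls without overlap, but the gene was not called (log2 fold change −0.50, adjusted p = 0.205). The difference from heterozygotes was −0.66 and was not called by limma (adjusted p = 0.0985), whereas edgeR and DESeq2 on the recovered reads called it, as did limma without heterozygote library 3 (lowest adjusted p of these 3 fits = 0.0157). *Prrx2*, its more abundant paralog, was 26.9, 27.3 and 24.5 in controls, 31.4, 28.6 and 29.2 in heterozygotes, and 25.8, 23.9 and 26.1 in homozygotes, so that heterozygotes were the highest group. *Shox2*, of the sinoatrial node, was 9.02, 12.1 and 14.4 in controls, 17.6, 8.52 and 18.3 in heterozygotes and 13.1, 6.69 and 14.0 in homozygotes, and the groups overlapped (−0.11, SE 0.30). *Shox2* overlaps *Rsrc1* on the other strand. *Alx1* and *Alx4*, factors of craniofacial and limb mesenchyme, stayed under 6 units in every library and were not called.

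In the zinc finger homeobox class, *Zfhx2* and *Zfhx3* moved in opposite directions. *Zfhx2* (chr14:55680498-55710885, minus strand) was 15, 13.8 and 16.3 in controls, 14.1, 11.9 and 14.6 in heterozygotes, and 26.2, 26.5 and 23.9 in homozygotes. All homozygotes lay above all other libraries, at 170% of the control mean. The fold change was 0.75 (SE 0.11, limma, adjusted p = 0.000926) against controls and 0.89 (SE 0.11, adjusted p = 0.000331) against heterozygotes. *Zfhx3* (chr8:111238544-111485521, plus strand), which is known for its association with atrial fibrillation in humans, was 20.4, 22.7 and 27.6 in controls, 16.5, 19.5 and 15.8 in heterozygotes, and 14.9, 13.1 and 13.1 in homozygotes. The 3 groups did not overlap, with heterozygotes between the others. The difference was −0.75 (SE 0.13, adjusted p = 0.00193) between homozygotes and controls, whereas neither −0.32 against heterozygotes (adjusted p = 0.117) nor −0.43 between heterozygotes and controls (adjusted p = 0.389) was called. Its exonic length is 16424 bases against a median of 3669 over all genes, and with the trend of fold change on gene length removed its difference from controls was −0.51 (adjusted p = 0.0179). *Zfhx4* was not called (−0.16, SE 0.16, adjusted p = 0.544). Shares of the 3 genes in their sum were taken on signal per kb of exonic length, not on the signal above. *Zfhx2* made up 46.6% ± 1.62 of the sum in controls, 49.0% ± 4.07 in heterozygotes and 69.0% ± 2.01 in homozygotes (SD, n = 3). *Zfhx3* made up 38.7% ± 3.11, 33.3% ± 4.68 and 19.6% ± 0.817 in the same order.

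The 250 bases before the start of *Zfhx2* (chr14:55710886-55711135, NCBIM37, minus strand) are shown as the member with the smallest adjusted p among those that rose.
*Zfhx2* upstream: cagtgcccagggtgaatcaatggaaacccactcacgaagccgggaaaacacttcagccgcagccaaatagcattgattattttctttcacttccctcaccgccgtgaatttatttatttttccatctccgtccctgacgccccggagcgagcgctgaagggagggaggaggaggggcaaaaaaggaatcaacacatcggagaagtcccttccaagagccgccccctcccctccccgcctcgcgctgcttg
A 12-letter core of the CTCF motif was searched on both strands in this window of every gene, and was found in 0 of 45 members and in 2.67% of 13211 genes. TAATCC, the site bound by bicoid-type homeodomains, was found in 2 of 45 members, *Adnp* and *Lhx9*, and in 5.51% of all windows. Neither was found in the *Zfhx2* window, which says only that these letters are not there.

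*Adnp* (chr2:168006486-168032612, minus strand), which encodes a protein of chromatin remodeling complexes, had the lowest fold change of all members against controls and a wide spread among the homozygote libraries. It was 52.0, 34.9 and 48.2 in controls, 37.7, 24.8 and 36.6 in heterozygotes, and 7.38, 25.8 and 21.5 in homozygotes. Homozygotes did not overlap with controls but overlapped with heterozygotes. The fold change was −1.44 (SE 0.34, limma, adjusted p = 0.0121) against controls, and −0.99 (adjusted p = 0.0679) against heterozygotes, which was not called. Without homozygote library 1 it was −0.90 (adjusted p = 0.0109), and without control library 3 the call was lost (−1.38, adjusted p = 0.0502). *Adnp* overlaps exons of *Dpm1* on the same strand, whose fold change was −0.09. Its paralog *Adnp2* was 32.4, 33.4 and 37.8 in controls, 37.3, 36.8 and 39.8 in heterozygotes, and 32.8, 33.9 and 35.1 in homozygotes (−0.02, SE 0.08).

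Of the Tshz genes, which are related to *Drosophila* teashirt, *Tshz3* (chr7:37483137-37558476, plus strand) was 2.97, 3.10 and 5.92 in controls, 4.66, 4.10 and 4.50 in heterozygotes, and 2.16, 2.28 and 2.48 in homozygotes. Homozygotes were the lowest group. The difference was called against heterozygotes (−0.81, SE 0.24, adjusted p = 0.0413) but not against controls (−0.62, adjusted p = 0.10), where control library 3 was above the other controls. The call against heterozygotes was lost whichever heterozygote or homozygote library was left out, with an adjusted p from 0.0786 to 0.111. *Tshz2* was 4.71, 4.32 and 6.21 in controls, 11.4, 4.60 and 6.11 in heterozygotes, and 5.34, 2.12 and 3.74 in homozygotes, with overlap (−0.46, SE 0.32). Against heterozygotes it was −0.88, which was not called by limma (adjusted p = 0.0893) but was by DESeq2, by limma with a replicate block and by limma without homozygote library 1. *Tshz1* was −0.00 (SE 0.09) from controls.

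**Figure D3:**
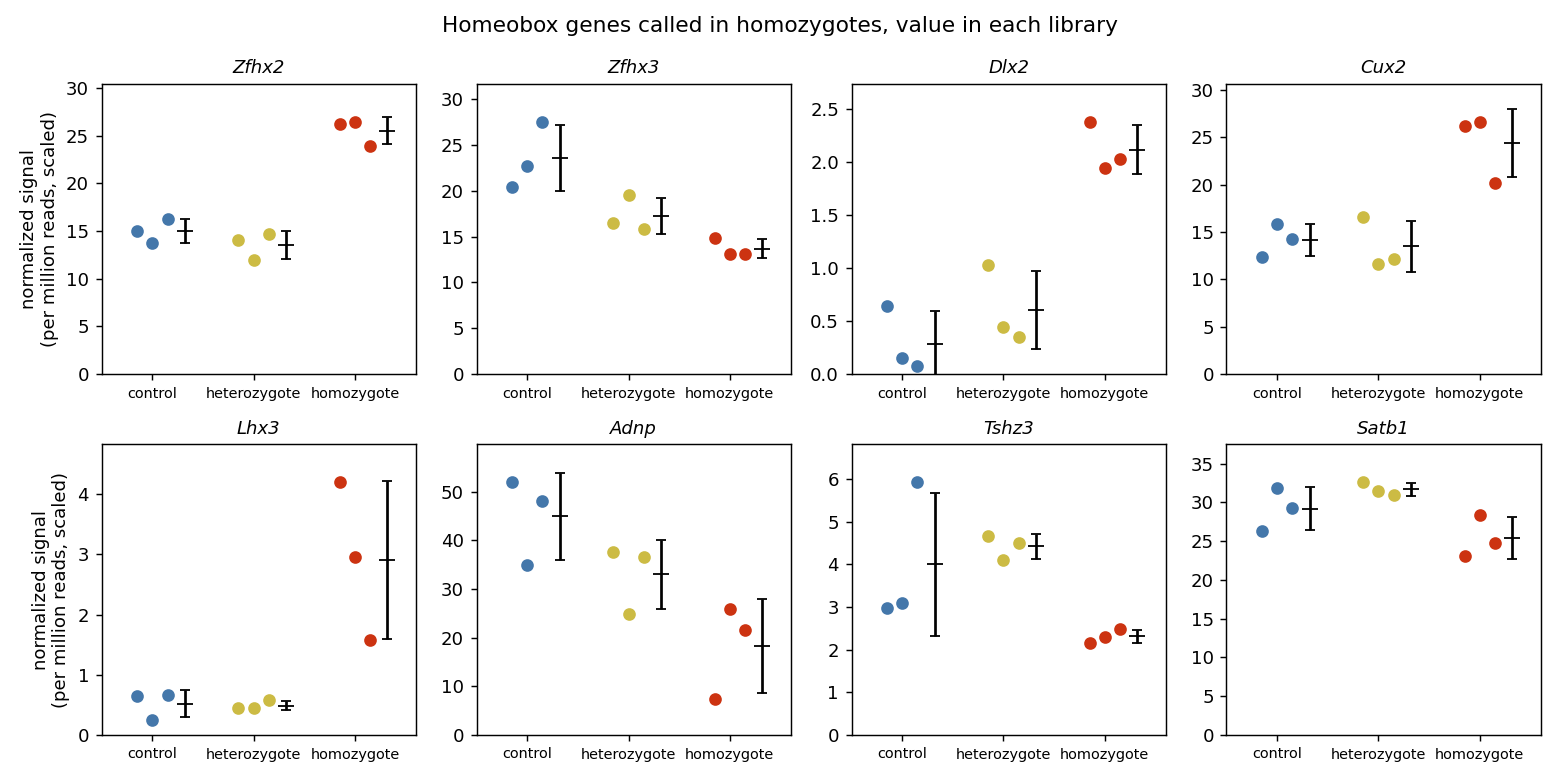
Normalized signal (y axis, from 0) of 8 of the homeobox genes called against controls or heterozygotes, with 1 point per library and the mean ± SD of each genotype (n = 3). Homozygotes were separate from both other groups in *Zfhx2*, *Zfhx3*, *Dlx2*, *Cux2*, *Lhx3* and *Tshz3*, and *Adnp* had 1 homozygote library, at 7.38, far under the rest.

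In the CUT class, *Cux2* (chr5:122308396-122500111, minus strand), a factor best known from upper cortical neurons, was 12.4, 15.8 and 14.3 in controls, 16.6, 11.7 and 12.1 in heterozygotes, and 26.2, 26.7 and 20.2 in homozygotes. All homozygotes were above all other libraries. The fold change was 0.76 (SE 0.15, limma, adjusted p = 0.00586) against controls and 0.84 (SE 0.15, adjusted p = 0.00359) against heterozygotes. *Cux1*, its broadly expressed paralog, was 60.1, 58.9 and 66.0 in controls, 59.0, 58.6 and 60.1 in heterozygotes, and 58.5, 51.5 and 58.6 in homozygotes. It was not called (−0.13, SE 0.07, adjusted p = 0.240). *Cux2* made up 17.9% ± 2.11 of the summed signal per kb of the pair in controls and 29.2% ± 4.18 in homozygotes.

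*Satb1* (chr17:51875512-51972615, minus strand), a protein that organizes chromatin in lymphoid cells, was 26.4, 31.9 and 29.3 in controls, 32.6, 31.5 and 31.0 in heterozygotes, and 23.0, 28.3 and 24.8 in homozygotes. It was called lower against heterozygotes, without overlap (−0.32, SE 0.10, adjusted p = 0.0472), and not against controls (−0.20, adjusted p = 0.199). The call was lost when control library 2 or 3, any heterozygote library or homozygote library 1 or 3 was left out, with an adjusted p from 0.0501 to 0.132, and with the length trend removed (−0.22, adjusted p = 0.176). *Onecut2* had a mean of 1.66 in controls and 1.10 in homozygotes, with overlap.

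In the NKL and other ANTP class, *Dlx2* (chr2:71381466-71384811, minus strand), known from forebrain and neural crest, was close to the limit of detection outside homozygotes. It had 5, 1 and 0 reads in controls, 10, 3 and 1 reads in heterozygotes, and 10, 11 and 22 reads in homozygotes. The signal was 0.640, 0.152 and 0.0731 in controls, 1.03, 0.442 and 0.346 in heterozygotes, and 2.38, 1.95 and 2.03 in homozygotes. Homozygotes were above all other libraries. The fold change was 1.80 (SE 0.36, limma, adjusted p = 0.00565) against controls and 1.29 (SE 0.36, adjusted p = 0.0315) against heterozygotes, and edgeR on the recovered reads gave 3.01 (adjusted p = 0.00969) and 1.72 (adjusted p = 0.0690). The call against heterozygotes was lost without heterozygote library 2 or 3 or any homozygote library, with an adjusted p from 0.0646 to 0.0989. *Dlx2* was in the table only through its homozygote libraries, so a difference was a condition of its being listed.

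*Msx1* and *Msx2* act in the cushions and outflow tract. *Msx1* was 12.3, 14.3 and 15.7 in controls, 11.1, 12.9 and 10.3 in heterozygotes, and 11.9, 9.39 and 9.50 in homozygotes. It lay just outside the threshold against controls, without overlap (−0.44, SE 0.14, adjusted p = 0.0563). *Msx2* was 9.72, 7.88 and 9.43 in controls, 8.19, 11.8 and 7.96 in heterozygotes, and 6.47, 8.38 and 7.43 in homozygotes, with overlap (−0.26, SE 0.17). Neither was called. *Hhex*, a factor of endothelium and endoderm, was 5.30, 7.78 and 7.53 in controls, 8.88, 8.39 and 7.04 in heterozygotes, and 7.38, 7.02 and 8.24 in homozygotes. *Meox1*, known from somites, was 9.37, 12.5 and 8.26 in controls, 13.5, 10.2 and 5.88 in heterozygotes, and 11.2, 4.15 and 8.96 in homozygotes. In both genes all groups overlapped, and homozygotes differed from controls by 0.14 (SE 0.17) and −0.37 (SE 0.32). *Barx1* and *Barx2* had control means of 0.808 and 0.848 and were not called.

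In both LIM class members the homozygotes lay above the controls without overlap, as they did in 16.6% of all genes. For *Lhx3* a difference was a condition of its being listed, so that nothing is read from this count. *Lhx3* (chr2:26055732-26063769, minus strand), a pituitary and motor neuron factor, had 11 reads in all controls together, and 18, 17 and 17 reads in the homozygotes. Its signal was 0.640, 0.254 and 0.658 in controls, 0.441, 0.442 and 0.577 in heterozygotes, and 4.20, 2.96 and 1.58 in homozygotes. The fold change was 1.69 (SE 0.35, limma, adjusted p = 0.00631) against controls and 1.72 (SE 0.35, adjusted p = 0.00635) against heterozygotes, and edgeR on the recovered reads gave 2.55 (adjusted p = 0.00548) and 2.68 (adjusted p = 0.00592). Like *Dlx2*, *Lhx3* was listed only through its homozygote libraries. *Lhx9*, expressed in mesothelium and limb, was 6.46, 9.81 and 7.38 in controls, 10.2, 8.77 and 10.7 in heterozygotes, and 11.2, 11.4 and 10.5 in homozygotes. It was just outside the threshold (0.48, SE 0.16, adjusted p = 0.0566). Beside the rises of *Dlx2* and *Lhx3*, 1 of 5 neural markers in the table was called higher (*Tubb3*), and the summed neural signal ran from 20.3 to 26.4 in controls and from 31.0 to 34.1 in homozygotes. Of 8 neural crest markers, 6 were not in the table, among them *Sox10* and *Foxd3*, and 0 of the other 2 were called by limma in any comparison, with 0 at an unadjusted p under 0.05 against controls and 1 against heterozygotes. The summed signal of these 2 ran from 115 to 132 in controls and from 90.2 to 114 in homozygotes. The part of both lists in the changes of *Dlx2* and *Lhx3* was not tested.

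In the TALE class, 0 of 10 genes were called by limma in any comparison. Of all genes, 15.2% were called in homozygotes against controls, 13.6% against heterozygotes and 0.143% in heterozygotes against controls. Against heterozygotes, 9 of 10 had a fold change under 0, with a median of −0.17. An unadjusted p under 0.05 was found for 0 of 10 in homozygotes against controls, against 29.6% of all genes, and for 3 of 10 against heterozygotes, against 27.6%. edgeR and DESeq2 called 0 of them as well, but limma with other settings called *Meis1* (4 alternatives), *Meis2* and *Pbx3* (1 each) lower against heterozygotes, and *Meis2* lower against controls (2 alternatives). *Pbx2*, the most abundant member, was 120, 134 and 132 in controls, 139, 140 and 122 in heterozygotes, and 127, 116 and 128 in homozygotes. The groups of this gene overlapped, with a fold change of −0.06 (SE 0.07) against controls. Its share of the summed signal per kb of the 3 *Pbx* genes was also similar, at 64.4% ± 1.41 in controls and 65% ± 1.30 in homozygotes.

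*Meis1*, a regulator of cardiomyocyte cell cycle, was 56.2, 60.03 and 58.4 in controls, 62.6, 58.8 and 64.5 in heterozygotes, and 52.1, 56.6 and 51.1 in homozygotes. *Meis2*, which acts in the neural crest of the heart, was 83.9, 91.0 and 87.5 in controls, 108, 82.6 and 66.3 in heterozygotes, and 70.3, 70.8 and 76.4 in homozygotes. *Meis1* homozygotes lay under all heterozygotes (−0.22, SE 0.07, adjusted p = 0.0511) and *Meis2* homozygotes under all controls (−0.27, SE 0.13, adjusted p = 0.173), and neither was called. *Pknox2* had the largest difference of the class, with 12, 9.71 and 12.2 in controls, 12.8, 12.9 and 10.3 in heterozygotes, and 9.20, 8.38 and 9.59 in homozygotes (−0.30, SE 0.14, adjusted p = 0.175). *Tgif1*, a repressor of TGF-beta responses, was 17.8, 19.3 and 17.3 in controls, 21.0, 18.2 and 18.6 in heterozygotes, and 17.6, 17.5 and 20.8 in homozygotes (0.04, SE 0.11). *Meis3*, *Pbx3*, *Pknox1* and *Tgif2* lay between −0.15 and 0.13.

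HOX genes were near the limit of the table. *Hoxa3* was 1.34, 0.457 and 0.219 in controls, 2.5, 0.820 and 0.346 in heterozygotes, and 1.70, 0.423 and 0.946 in homozygotes. All groups overlapped. *Hoxb4* was 1.11, 1.58 and 1.24 in controls, 3.48, 2.59 and 1.73 in heterozygotes, and 1.25, 1.44 and 1.22 in homozygotes, the heterozygotes being above all other libraries. *Hoxb2* was also highest in heterozygotes on average, with means of 0.614 ± 0.226, 2.33 ± 0.773 and 0.934 ± 0.642, and it overlaps the antisense gene *Hoxb3os*. Neither *Hoxb* gene was called by limma on the deposited values in any comparison, and voom on the recovered reads called *Hoxb2* lower in homozygotes than in heterozygotes (adjusted p = 0.041). *Hoxb2* had reached the table only through its heterozygote libraries, in which it was highest, so that a difference was a condition of its being listed.

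In the sine oculis class, *Six4* was 6.58, 5.44 and 6.65 in controls, 6.03, 5.61 and 5.65 in heterozygotes, and 4.66, 6.35 and 3.47 in homozygotes. *Six5*, of the myotonic dystrophy locus, was 14.8, 18 and 15.6 in controls, 17.6, 18.2 and 14.4 in heterozygotes, and 15.8, 15 and 15.4 in homozygotes. Homozygotes overlapped with controls in both genes (−0.37, SE 0.20, and −0.06, SE 0.12), and neither was called.

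Homozygotes were then compared with heterozygotes, which carry the same driver. This comparison shares the homozygote libraries with the one above. *Zfhx2*, *Cux2*, *Lhx3* and *Dlx2* were higher and 3 members, among them *Tshz3* and *Satb1*, lower, in all 7 of 45 members (15.6%), against 13.6% of all genes. *Dlx2* and *Lhx3* were listed only through their homozygote libraries, and *Alx4* and *Hoxb2* needed their heterozygote libraries to be listed. *Alx4* is among the members without overlap. Both *Alx4* and *Hoxb2* are among those with a fold change under 0 and an unadjusted p under 0.05. Nothing is read from the place of these genes in any count of this comparison. The background was 6.87% for the 4 higher and 6.7% for the 3 lower members. The groups did not overlap in 16 members (35.6%) against 30.8% of all genes, 4 of them higher (8.89%, background 15.3%) and 12 lower in homozygotes. The 12 lower members included *Meis1*, *Pknox2*, *Prrx2*, *Cux1* and *Hoxb4*, which made 26.7% of the members against a background of 15.5%. Of the 45 members, 34 had a fold change under 0, the median was −0.20 against −0.00 for all genes, and 19 (42.2%) had an unadjusted p under 0.05 against 27.6% of all genes. Without heterozygote library 2 the calls numbered 4.

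Between heterozygotes and controls, 0 of 45 members were called by limma, against 0.143% of all genes (0.0928% higher and 0.05% lower), and 0 by edgeR or DESeq2 on the recovered reads. An unadjusted p under 0.05 was found for 4 members (8.89%, background 7.37%), *Hoxb2*, *Hoxb4*, *Tshz1* and *Zfhx3*. The groups did not overlap in 6 members (13.3%), against 14.3% of all genes, with *Hoxb2*, *Hoxb4*, *Prrx2*, *Meis3* and *Tshz1* higher (background 7.41%) and *Zfhx3* lower (background 6.93%) in heterozygotes. *Hoxb2* was listed only through the heterozygote libraries, so that nothing is read from its place in these counts.

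CTCF is known to separate neighboring genes from each other's enhancers, and the 3 nearest measured genes on each side of 6 of the members called against controls were examined. Beside *Zfhx2*, *Ngdn* rose by 0.62 (adjusted p = 0.000684) at 76.6 kb, while *Dhrs4* fell by 0.49 (adjusted p = 0.0178) and *Thtpa*, at 2.79 kb, was not called (0.21). The myosin heavy chain genes *Myh7* and *Myh6* lay 97.4 and 125 kb from *Zfhx2* and were not called against controls (−0.32 and −0.36), but were called lower against heterozygotes (−0.61 and −0.59, adjusted p = 0.0172 and 0.0222). Around *Dlx2* and around *Zfhx3*, 0 of the 6 neighbors of each were called by limma against controls. Over all 6 members, 6 of 36 neighbors were called against controls (16.7%), against 15.2% of all genes. Against heterozygotes, *Rapgef4* (0.89, adjusted p = 0.0195) and *Metap1d* (0.33, adjusted p = 0.0385) beside *Dlx2* were called higher, and 8 of 36 neighbors were called in all (22.2%), against 13.6% of all genes. Other neighbors called against controls were *E130018N17Rik* (1.55) beside *Adnp*, *Atxn2* (−0.27) beside *Cux2*, and *Nacc2* (−0.55) and *Ubac1* (0.35) beside *Lhx3*.

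**Figure D4:**
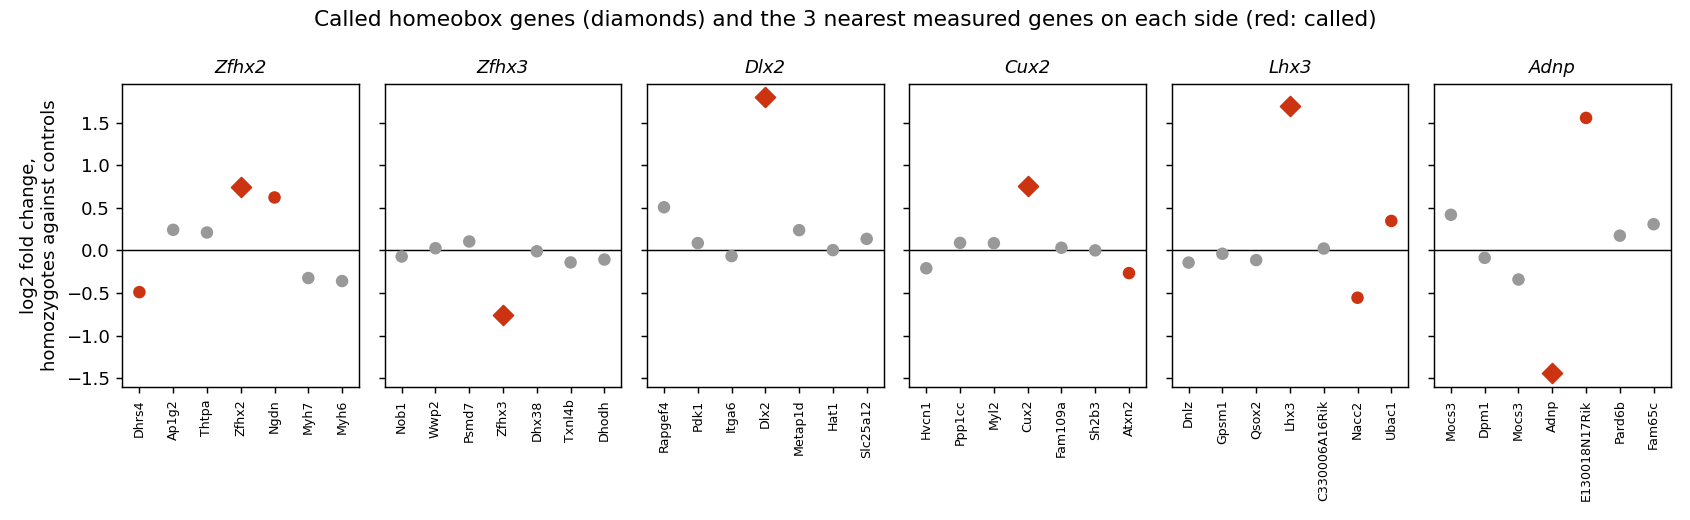
Log2 fold change of homozygotes against controls (y axis) for 6 of the called homeobox genes (diamonds) and the 3 nearest measured genes on each side in genomic order (circles), with called genes in red. Among the neighbors plotted, *Ngdn* was the only one called with a change of more than 0.5 in the direction of its homeobox gene, and *Mocs3* stands for 2 Ensembl identifiers with that name.

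Genes around the homeobox network were counted in lists in homozygotes against controls, where 7.19% of all genes rose and 8.03% fell. These lists were chosen with earlier results of these data known. Of 65 other homeobox genes, 23 were in the table, of which 1 rose and 4 fell (21.7% called). *Lmx1a* rose (0.68, adjusted p = 0.0395). *Nkx2-5*, a core cardiac factor that lends its expression to the Cre driver, was 75.4 ± 6.00 in controls, 57.0 ± 2.87 in heterozygotes and 38.8 ± 2.33 in homozygotes, and fell by 0.95, while *Hopx*, which encodes a small homeodomain protein of the heart, fell by 0.69. *Pou2f1* (−0.58) and *Prox1* (−0.50) fell as well. Of 17 retinoic acid pathway genes in the table, 2 rose, the synthesis enzymes *Aldh1a1* (0.70) and *Aldh1a3* (1.08), and 0 fell (11.8% called). Of 38 Polycomb and trithorax genes, which maintain *Hox* states, *Pcgf5* rose (0.86) and *Phc3*, *Mll1*, *Mll2* and *Ash1l* fell, by 0.41 to 0.51, and these 5 were 13.2% of the list against 15.2% of all genes. Of 7 *Eya*, *Dach* and associated genes in the table, which act with sine oculis class proteins, 0 were called by limma in any comparison, and an unadjusted p under 0.05 was found for 0 in homozygotes against controls, 2 against heterozygotes and 1 in heterozygotes against controls.

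Another list held genes of the venous pole and left-right patterning, together with more general heart genes such as *Nkx2-5* and *Hopx*, which were also counted above. Of its 17 genes in the table, 2 rose and 7 fell (52.9% called, against 15.2% of all genes). The median fold change was −0.25 against −0.00 for all genes. The list was made with earlier results of these data known, and the study reports lower expression of *Hopx* and *Nppa* in mutant hearts. Part of the share was thus fixed in advance, and nothing is read from the share or the median. *Gja5*, the atrial and conduction connexin, fell by 1.59 (adjusted p = 5.41e-05), and *Nppa*, *Nkx2-5*, *Hopx*, *Tbx20*, *Ccnd2* and *Pkd2* also fell, whereas *Tbx18* and *Wt1*, which are epicardial markers too, rose. Of the cushion markers, 2 of 8 fell, *Postn* (−0.53) and *Vcan* (−0.67), and their summed signal ran from 1218 to 1396 in controls and from 716 to 981 in homozygotes. *Prrx1* and *Msx1*, which were not called, are part of that sum. Of 12 cardiomyocyte markers 1 rose and 2 fell, of 9 endothelial markers 1 rose and 3 fell, and of the 6 second heart field markers present 0 rose and 1 fell. Of 10 body wall and limb markers, 6 of them members, 0 rose and 1 fell (*Hand1*). Among the 5 macrophage markers present 1 fell (*Lyz2*). Among the 6 liver and endoderm markers present 0 were called by limma in any comparison and 1 had an unadjusted p under 0.05 in homozygotes against controls. Their summed signal varied from 66.2 to 803 within controls, from 13.1 to 24 in heterozygotes and from 14.2 to 81.4 in homozygotes, and in heterozygotes against controls the median was −2.32, with 5 of 6 at an unadjusted p under 0.05.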

How the data were processed

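Sequencing of the 9 libraries used a GAIIx. The authors deposited 1 table of normalized signal by gene, from NCBIM37 transcripts (Ensembl build 65). The submitters' processing notes name CASAVA, cutadapt, RSEM, Bowtie2 and limma, with no roles. Each deposited value was whole reads plus 0.5, scaled per library, and reads were recovered for 100% of values. Columns named KO, DH (double heterozygous) and Het were taken as homozygotes, heterozygotes and Cre-free controls, from the labels and the study's methods, and group averages were checked against the study's table, and libraries carry their column's number. Values were tested as log2(value + 0.5) with limma 3.58.1 in R 4.3.3, with 9 libraries, 3 group means and a mean-variance trend. The recovered reads were tested with edgeR 4.0.16 and DESeq2 1.42.0. Nothing says that pools were of separate litters, so p-values measure the spread between pools. Counts of replicate pairs differed beyond sampling noise, with a chi-square of 3.22 to 7.15 for each degree of freedom.

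Members and lists were chosen with earlier results of these data known. Library values are given for members called in any comparison, the largest fold change and the 2 highest control means of each class, and genes known in heart or pharyngeal development. Some members are not reported here by name, but counts include them. Of the lists, genes called in homozygotes against controls are named. Names, lengths, starts and coding sequences came from GENCODE M1. Near-identical copies were searched with BLAST 2.17.0 at 95% identity over 50% of a transcript. Scripts were tested on simulated data. Alternatives were other pseudocounts (0.1 and 1), filters, normalizations, tests and thresholds, only the groups compared, removal of the length trend, a replicate block, and leaving out each library.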

Additional observations from a re-analysis of the deposited data

How the results depend on the processing

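Of 45 members, those called in homozygotes against controls numbered 7, and from 6 to 9 over 23 alternatives. Against heterozygotes they numbered 7, and 4 with an adjusted p under 0.01, from 4 to 7 when 1 library was left out (4 without heterozygote library 2), and from 5 to 8 otherwise. Between heterozygotes and controls they numbered 0 in each alternative. Library numbers gave no sign of pairing: 1 of 9 same-numbered pairs had a correlation of deviations above 0.1 (from −0.14 to 0.13), and 2 of 9 libraries correlated best with their own number. The highest correlation, 0.18, was between control library 1 and homozygote library 3. Such correlations cannot exclude shared litters or batches. With a replicate block the counts were 7, 7 and 0, and the *Ctcf* fold change was −0.57. None of the fold changes of called members changed direction, in the contrasts in which they were called. With the length trend removed, the differences of *Zfhx4* (−0.16 to 0.05), *Meis3* (0.01 to −0.05), *Adnp2* and *Tshz1* from controls, which were not called, changed sign. Other alternatives were not examined for members that were not called, except for gained calls.

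The calls of *Zfhx2*, *Cux2*, *Zfhx3*, *Dlx2* and *Lhx3* against controls were kept in every alternative in which they were tested. For *Dlx2* and *Lhx3* this says little, since both were listed only because homozygotes were high. *Adnp* lost its call in 2 of 22, limma without the trend and without control library 3 (adjusted p up to 0.0716). These counts by gene leave out the threshold of 0.01 on the main fit. Under that threshold *Adnp* was not called against controls, and *Dlx2*, *Tshz3* and *Satb1* were not called against heterozygotes. Against heterozygotes, *Dlx2* lost its call in 7 of 20 alternatives, *Tshz3* in 11 of 21 and *Satb1* in 13 of 22 (with the replicate block, adjusted p = 0.0539). *Dlx2* and *Lhx3* had no adjusted p from DESeq2 there. *Msx1* was called against controls in 6 alternatives, among them edgeR and the removal of the length trend, *Lhx9* and *Meis2* in 2 each and *Prrx1* in 1. Against heterozygotes, *Meis1* was called in 4 alternatives, *Prrx1* and *Tshz2* in 3 each, and *Adnp*, *Alx4*, *Hoxb2*, *Meis2*, *Pbx3* and *Prrx2* in 1 each. The causes of these changes were not tested. Depth limits the low members: 3 reads, the limit a count of 0 allows, were worth from 0.270 to 0.692 units, above the values of *Dlx2* in control libraries 2 and 3. Intervals and floors cover counting error only.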
